A study of Mus musculus with 12 samples.

Results

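The mesothelial and keratin genes are 8 genes listed by gene symbol, Upk1b, Upk3b, Lrrn4, Msln, Krt8, Krt18, Krt19 and Krt6a. The list was chosen with earlier results of these data known. All 8 were measured, each on 1 probe set, among 19938 genes with a single symbol. The cells were cCFU-F, cardiac fibroblast-like cells that form colonies, grown as bulk cultures of passage-zero cells that had been sorted from the hearts of C57BL/6 mice, males aged 12 weeks, by the surface phenotype SCA1+PDGFRα+CD31-. The sort keeps interstitial cells that carry the PDGF receptor alpha and leaves out endothelial cells. The 4 groups of 3 arrays were untreated cells, cells given PDGF-AB at 50 ng/ml, a ligand that activates the PDGF receptors, and cells given AG1296 at 1 uM or at 10 uM, a tyrosine kinase inhibitor of those receptors. The labels used here give neither the treatment length nor the vehicle. They also do not tell if the 3 arrays of a group had a culture or animal each, so p-values measure the spread between arrays, which may be technical.

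Mesothelium is the flat epithelium that lines the body cavities and covers the organs, and on the heart it forms the outer layer of the epicardium. Its cells make keratins of simple epithelia together with surface proteins that are rare elsewhere. Uroplakins were first known from the bladder lining, where Upk1b, a tetraspanin, forms a pair with a uroplakin of the third type; Upk3b is the form of that type found in mesothelium. Msln encodes mesothelin, a surface glycoprotein anchored to the membrane by a lipid, and Lrrn4 a membrane protein with leucine-rich repeats used as a mesothelial marker. Keratins build intermediate filaments from an acidic and a basic partner. Krt8 (basic) pairs with Krt18 or Krt19 (acidic) in simple epithelia, and Krt6a is a basic keratin of stratified epithelia that is induced in wounded or activated epidermis.

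Promoters were found for 4 of the 8 genes in RefSeq's table (build GRCm38.p6), which gives 250 bases before and 50 after the start site: Upk3b, Lrrn4, Krt8 and Krt18. Those of Upk3b and Lrrn4 are shown because these 2 mesothelial genes moved in opposite directions with AG1296. Upk3b lies on the plus strand at chr5:136038246-136038545 and Lrrn4 on the minus strand at chr2:132880813-132881112. Capitals mark GGAATG on either strand, the core bound by TEAD factors.
Upk3b: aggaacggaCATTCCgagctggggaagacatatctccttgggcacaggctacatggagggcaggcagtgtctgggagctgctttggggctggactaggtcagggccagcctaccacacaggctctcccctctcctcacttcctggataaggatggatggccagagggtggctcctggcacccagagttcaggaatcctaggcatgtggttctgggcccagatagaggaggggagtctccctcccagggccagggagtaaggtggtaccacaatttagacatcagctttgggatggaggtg
Lrrn4: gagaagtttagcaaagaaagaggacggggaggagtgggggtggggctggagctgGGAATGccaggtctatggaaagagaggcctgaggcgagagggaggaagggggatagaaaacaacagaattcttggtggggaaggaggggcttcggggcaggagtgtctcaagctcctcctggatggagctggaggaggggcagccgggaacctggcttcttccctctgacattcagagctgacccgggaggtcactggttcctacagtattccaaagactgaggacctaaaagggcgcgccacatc
Each window held GGAATG once, Upk3b on the minus strand at position -241 from the start site and Lrrn4 on the plus strand at position -196. The same letters were present in 14.7% of all 32851 promoters of 300 bases. The AP-1 core TGANTCA, the TATA box TATAAA, the GC box GGGCGG and the ETS core CCGGAA, searched on both strands, were not found in either window and were present in 7.81%, 13.6%, 35.7% and 14.9% of all promoters. Of these 5 motifs Krt8 held TATAAA on both strands, at overlapping positions, and Krt18 held 0.

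The members did not move as a block. Upk1b and Lrrn4 fell with AG1296 at both doses, Upk3b rose at 1 uM, Krt19 fell at 1 uM and Krt6a rose with PDGF-AB, while Msln, Krt8 and Krt18 passed the test in no comparison. By an F test over all groups, 5 of 8 members differed (limma, Benjamini-Hochberg adjusted p under 0.05 over all genes), where 5.00% of all genes did. With AG1296 at 1 uM, 1 member rose and 3 fell against untreated, where 1.88% of all genes rose and 1.33% fell. At 10 uM 0 rose and 2 fell (1.21% and 0.672% of all genes). With PDGF-AB 1 rose and 0 fell (0.120% and 0.211%). The arrays of the 2 groups did not overlap for 5 members at 1 uM, 4 at 10 uM and 3 with PDGF-AB, where this held for 20.3%, 18.0% and 13.3% of all genes. The members' median log2 fold change was -0.33 at 1 uM, 0.08 at 10 uM and -0.17 with PDGF-AB, beside -0.012, 0.0075 and 0.010 over all genes. The 3 comparisons share the untreated arrays. Because the members were chosen with earlier results of these data known, their counts and medians beside all genes, here and below, are a description only.

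**Figure D1:**
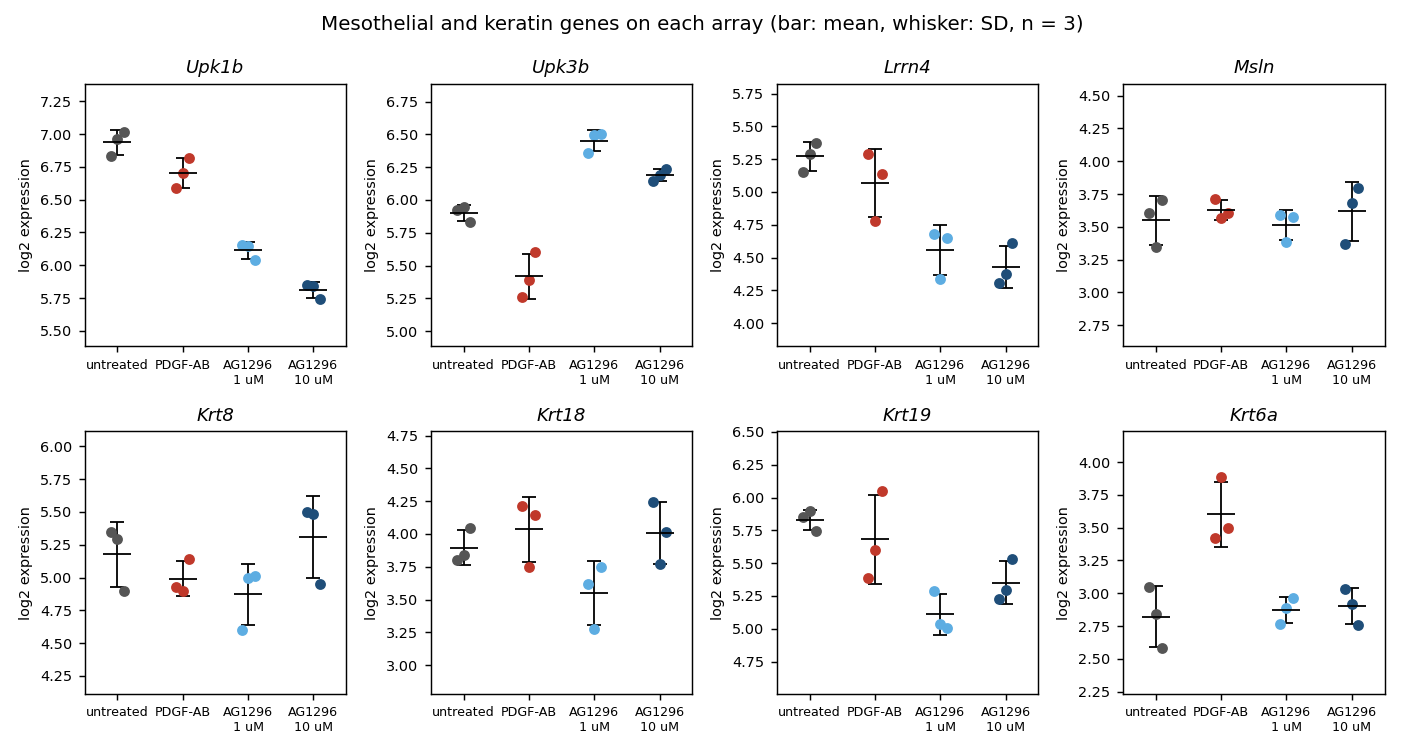
Log2 expression of the 8 genes on each of the 12 arrays, by treatment group; points are arrays, the bar is the group mean and the whisker the SD (n = 3). Vertical axes start at different levels, so heights are read within a gene. The AG1296 arrays of Upk1b and Lrrn4 lie below all untreated arrays, those of Upk3b above, and the PDGF-AB arrays of Krt6a above all others.

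Upk1b had the largest change among the members. Its log2 expression was 6.83, 6.96 and 7.01 on the untreated arrays and 6.59, 6.70 and 6.81 with PDGF-AB. It was 6.15, 6.15 and 6.04 with AG1296 at 1 uM and 5.85, 5.84 and 5.74 at 10 uM. The 4 groups do not overlap, in the order untreated, PDGF-AB, 1 uM and 10 uM. Against untreated the fall was 1.77-fold at 1 uM, a log2 fold change of -0.82 ± 0.09 (SE; limma, adjusted p = 0.000109). At 10 uM it was 2.18-fold, -1.13 ± 0.09 (adjusted p = 2.09e-05), rank 9 among 19938 genes ordered by size of fall. The neighbours in that order did not differ past the threshold at either end: PDGF-AB stood at -0.23 from untreated (95% interval -0.43 to -0.04; adjusted p = 0.460) and 10 uM at -0.30 from 1 uM (-0.50 to -0.11; adjusted p = 0.257). Upk1b was higher with PDGF-AB than with AG1296 by 0.59 at 1 uM (adjusted p = 0.00102) and by 0.89 at 10 uM (adjusted p = 4.69e-05).

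Upk3b, the uroplakin partner found in mesothelium, moved the other way with AG1296. With PDGF-AB both genes lay below all untreated arrays. Upk3b stood at 5.93, 5.95 and 5.83 on the untreated arrays. The values were 6.36, 6.49 and 6.50 with AG1296 at 1 uM and 6.15, 6.19 and 6.24 at 10 uM, against 5.26, 5.39 and 5.60 with PDGF-AB. All 4 groups were separate, with PDGF-AB lowest and 1 uM highest. The rise at 1 uM was 1.46-fold, a log2 fold change of 0.55 ± 0.10 (SE; limma, adjusted p = 0.00511). The difference at 10 uM, 0.29, did not pass (95% interval 0.08 to 0.50; adjusted p = 0.207), nor did that between doses, -0.26 (adjusted p = 0.408). With PDGF-AB the difference was -0.49 ± 0.10 (adjusted p = 0.0562), just outside the threshold; it passed with an intensity trend and robust moderation, with dim genes filtered out and without PDGF-AB replicate 3 (lowest adjusted p = 0.0123). PDGF-AB and AG1296 were far apart, Upk3b being 2.05-fold lower with PDGF-AB than at 1 uM (-1.03 ± 0.10, adjusted p = 1.21e-05) and 1.71-fold lower than at 10 uM (-0.78, adjusted p = 0.000270). Across the arrays Upk1b and Upk3b had a Pearson r of -0.65 (n = 12 arrays, a description that the 4 treatments shape), and 0.31 once the group means were removed.

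The other uroplakin genes passed in no comparison. Upk3bl, the gene next to Upk3b in RefSeq's order with a like product, had its own probe set and ranged over group means from 3.16 to 3.30. It passed in no comparison, with changes against untreated from -0.13 to -0.05. Whether the probes of one gene also bind RNA of the other was not tested. The 6 uroplakin genes on the array held no further calls, as Upk1a, Upk2 and Upk3a did not pass either. Upk1b and Upk3b were chosen as members with earlier results of these data known.

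Lrrn4 followed Upk1b. It was at 5.15, 5.29 and 5.37 on the untreated arrays, 4.68, 4.34 and 4.65 with AG1296 at 1 uM and 4.30, 4.37 and 4.61 at 10 uM. The AG1296 arrays all lay below the untreated ones, and the 2 doses overlapped. PDGF-AB arrays were at 5.29, 4.78 and 5.14, within and below the untreated range. The fall was 1.64-fold at 1 uM (log2 fold change -0.72 ± 0.14 SE; limma, adjusted p = 0.0106) and 1.79-fold at 10 uM (-0.84 ± 0.14; adjusted p = 0.00545). The call at 1 uM was lost without untreated replicate 3 or AG1296 1 uM replicate 2 (adjusted p of 0.0539 and 0.0572), whereas that at 10 uM was kept under all alternatives run (highest adjusted p = 0.0337). The changes with PDGF-AB (-0.20, 95% interval -0.50 to 0.10) and between doses (-0.13, -0.43 to 0.17) did not pass (adjusted p of 0.731 and 0.852). Lrrn4 was higher with PDGF-AB than at 1 uM by 0.51 (adjusted p = 0.0494) and than at 10 uM by 0.64 (adjusted p = 0.0197). The first of these calls was lost without any 1 of 10 arrays, the exceptions being PDGF-AB replicate 2 and AG1296 10 uM replicate 3 (up to 0.217). The second was lost without PDGF-AB replicate 1 or 3 or AG1296 10 uM replicate 1 or 2 (up to 0.0930). Both were lost in a fit of only the arrays compared (0.122 and 0.0630), and the first also with all probe sets tested (0.0539).

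Msln, the gene of mesothelin, showed no change that passed. Its 12 values ran from 3.34 to 3.80, below the lowest array median over all probe sets, 4.02, and all 4 groups overlapped. Group means were 3.55 ± 0.18 in untreated cells (SD, n = 3), 3.63 ± 0.07 with PDGF-AB, 3.52 ± 0.11 at 1 uM and 3.62 ± 0.22 at 10 uM. The 95% intervals of the change were -0.19 to 0.35 with PDGF-AB, -0.30 to 0.23 at 1 uM and -0.20 to 0.33 at 10 uM (limma, adjusted p of 0.906, 0.963 and 0.912). The deposited table gives no detection call, and background limits a fold change at such levels.

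**Figure D2:**
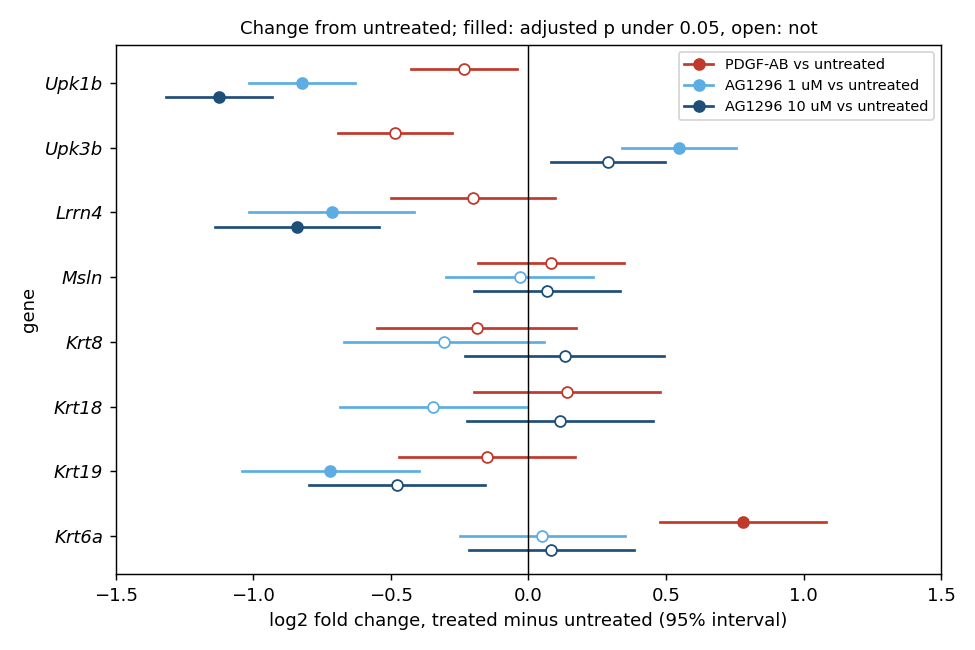
Log2 fold change of each gene in each treatment against untreated, with its 95% interval from the fit; filled points passed (adjusted p under 0.05 over all genes) and open points did not. Upk1b and Lrrn4 lie to the left of 0 at both AG1296 doses, Upk3b to the right, and Krt6a is the single filled point for PDGF-AB, at 0.78.

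Of the simple-epithelial keratins 1, Krt19, passed the test. All 3 stood below untreated at 1 uM, by -0.72 for Krt19 (95% interval -1.04 to -0.40), -0.35 for Krt18 and -0.31 for Krt8 on the log2 scale, and whether these changes differ was not tested. Krt19, which pairs with Krt8, was at 5.85, 5.89 and 5.74 on the untreated arrays. It was at 5.29, 5.04 and 5.00 with AG1296 at 1 uM and at 5.23, 5.30 and 5.53 at 10 uM. Both doses lay below the untreated arrays and overlapped each other. The fall at 1 uM was 1.65-fold (log2 fold change -0.72 ± 0.15 SE; limma, adjusted p = 0.0158). That call was lost without untreated replicate 1 or 2 or AG1296 1 uM replicate 2 or 3 (adjusted p from 0.0631 to 0.0692). At 10 uM the difference of -0.48 did not pass (95% interval -0.80 to -0.16; adjusted p = 0.166), nor did that between doses, 0.24 (-0.08 to 0.56; adjusted p = 0.686). With PDGF-AB Krt19 spread widely, at 5.39, 5.60 and 6.05, around the untreated values (-0.15, adjusted p = 0.836). It was higher with PDGF-AB than at 1 uM by 0.57 (adjusted p = 0.0415). That call was lost without any 1 of 9 arrays (up to 0.145), the exceptions being PDGF-AB replicate 1, AG1296 1 uM replicate 1 and AG1296 10 uM replicate 3, and in a fit of only the arrays compared (0.121). With PDGF-AB against 10 uM the difference was 0.33 (adjusted p = 0.340).

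Krt8 and Krt18 are neighbours in RefSeq's gene order and encode the first keratin pair of simple epithelia, and neither passed. Krt8 was at 5.35, 5.29 and 4.89 on the untreated arrays, 4.93, 4.90 and 5.14 with PDGF-AB, 4.60, 4.99 and 5.02 at 1 uM and 5.50, 5.49 and 4.95 at 10 uM. Every pair of groups overlapped. Its changes against untreated ran from -0.31 at 1 uM (95% interval -0.67 to 0.05) to 0.13 at 10 uM (-0.23 to 0.49), with adjusted p of 0.486 and 0.857. Krt18 was at 3.80, 3.84 and 4.05 on the untreated arrays and 4.21, 3.75 and 4.15 with PDGF-AB. It was at 3.62, 3.28 and 3.75 at 1 uM and 4.24, 3.77 and 4.02 at 10 uM. Its mean over the 12 arrays, 3.87, lay below the lowest array median of 4.02, so background limits its fold changes and correlations. The 1 uM arrays lay below the untreated and the 10 uM arrays and overlapped those with PDGF-AB, with a change of -0.35 from untreated (-0.68 to -0.01; adjusted p = 0.364). The difference of 0.49 between PDGF-AB and 1 uM did not pass (0.15 to 0.82; adjusted p = 0.111); it passed without PDGF-AB replicate 2 (0.0425). Over the 12 arrays Krt8 and Krt18 had a Pearson r of 0.25, and -0.13 with group means removed.

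Krt6a, the keratin of activated stratified epithelium, was the only member called with PDGF-AB. It was at 3.42, 3.89 and 3.50 with PDGF-AB and at 3.04, 2.84 and 2.58 on the untreated arrays. With AG1296 it was at 2.77, 2.89 and 2.96 at 1 uM and 3.04, 2.92 and 2.76 at 10 uM. The PDGF-AB arrays lay above the other 9, which overlapped, and all 12 values lay below the lowest array median of 4.02. The rise over untreated was 1.72-fold, a log2 fold change of 0.78 ± 0.14 (SE; limma, adjusted p = 0.0339), rank 8 among 19938 genes ordered by size of rise. As for Msln, background limits a fold change at this level, so the fold and its rank are those of the measured signal. That call was lost without untreated replicate 2 or 3, PDGF-AB replicate 2 or 3, AG1296 1 uM replicate 1 or 2 or AG1296 10 uM replicate 2 (up to 0.156), with median centring (0.0502), with quantile normalization (0.0682) and with only the arrays compared (0.204). Against AG1296 the rise was 0.73 at 1 uM (adjusted p = 0.00606; highest over the alternatives 0.0354) and 0.70 at 10 uM (adjusted p = 0.0117). The latter was lost without PDGF-AB replicate 2 or AG1296 10 uM replicate 3 (0.0515 and 0.0582). AG1296 itself left Krt6a at 0.05 and 0.08 from untreated (95% intervals -0.25 to 0.35 and -0.22 to 0.38).

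Krt6b, the close copy that lies next to Krt6a, had a probe set of its own. Its group means ran from 1.71 to 1.97, and its change with PDGF-AB was 0.21 ± 0.16 (SE; limma, adjusted p = 0.754). Because the copies are near-identical, the Krt6a value is uncertain to the extent that its probes also bind Krt6b RNA, which was not tested.

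Calls in the wider keratin family were limited to members, which were chosen with earlier results of these data known. How far that choice shaped this outcome was not tested. Of 52 keratin genes on single-symbol probe sets, the 4 members included, 1 rose with PDGF-AB (Krt6a), 1 fell at 1 uM (Krt19) and 0 changed at 10 uM (limma; 3, 6 and 5 had an unadjusted p under 0.05, where 8.55%, 13.1% and 11.4% of all genes did). The family's median log2 fold change was 0.04 with PDGF-AB, -0.04 at 1 uM and 0.01 at 10 uM. Krt7, another keratin of simple epithelia, had a mean of 4.34 in untreated cells and 3.96, 4.12 and 3.95 with PDGF-AB, 1 uM and 10 uM, and did not pass (F test adjusted p = 0.566). At most 5 of the 52 genes had a group mean above the array median, the middle level of all genes.

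**Figure D3:**
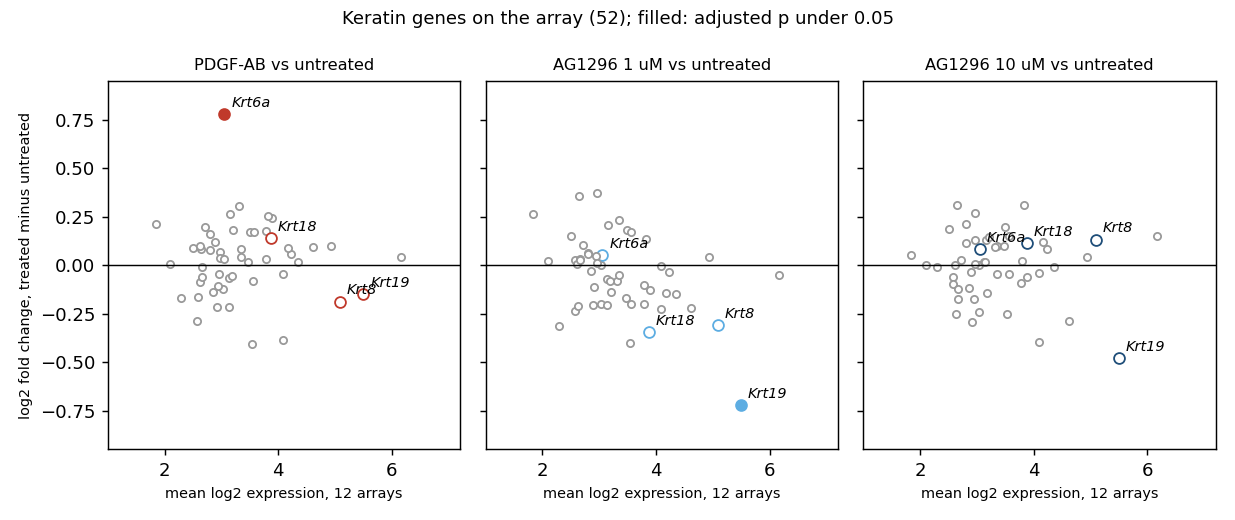
Log2 fold change against untreated (vertical axis) for 52 keratin genes, plotted at their mean log2 expression over the 12 arrays (horizontal axis); coloured and named points are the 4 keratin members, grey points the others, and filled points passed. Krt6a stands at 0.78 with PDGF-AB and Krt19 at -0.72 with AG1296 1 uM, with the remaining genes between -0.41 and 0.37 in these 2 panels.

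The treatments were also compared directly. With AG1296 10 uM against 1 uM, 0 of 8 members passed (limma; 4 had an unadjusted p under 0.05, as did 9.07% of all genes), where 0.376% of all genes did, 0.196% higher and 0.181% lower, and 3 had groups that did not overlap, where 15.9% of all genes had. PDGF-AB against 1 uM gave 5 members called, 4 higher and 1 lower, where 5.21% of all genes were called, 2.28% higher and 2.93% lower. Upk1b, Lrrn4, Krt19 and Krt6a were the higher ones and Upk3b the lower one. PDGF-AB against 10 uM gave 3 higher and 1 lower (1.42% and 2.0% of all genes), the same genes without Krt19. Groups did not overlap for 5 and 4 members in these 2 comparisons (21.8% and 18.1% of all genes). The members' median log2 difference was 0.07 between doses, 0.50 for PDGF-AB against 1 uM and 0.18 against 10 uM, beside 0.018, 0.026 and 0.0035 over all genes.

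Other markers of mesothelium and epicardium gave a mixed picture too. Of 20 listed genes, all measured, 0 rose and 2 fell with PDGF-AB, 2 rose and 0 fell at 1 uM, and 1 rose and 0 fell at 10 uM, with median log2 fold changes of 0.04, 0.06 and 0.03. Over all genes 0.120% rose and 0.211% fell with PDGF-AB, 1.88% and 1.33% at 1 uM, and 1.21% and 0.672% at 10 uM. Sema3d, a secreted guidance cue of the epicardium, was at 7.82 ± 0.05 in untreated cells (SD, n = 3), 7.23 ± 0.08 with PDGF-AB, 8.93 ± 0.08 at 1 uM and 8.49 ± 0.10 at 10 uM. It fell by 0.59 with PDGF-AB (limma, adjusted p = 0.0107) and rose by 1.11 and 0.67 with AG1296 (adjusted p of 5.21e-06 and 0.000825). The fall was lost without untreated replicate 1 (0.0653) and with only the arrays compared (0.107). Gpm6a, a membrane glycoprotein of neurons and mesothelium, rose by 1.13 at 1 uM (adjusted p = 0.000379) and stood at 0.42 at 10 uM (adjusted p = 0.217). Nkain4, a protein that interacts with the sodium pump, was at 7.83 ± 0.04 in untreated cells and 7.04 ± 0.34 with PDGF-AB (adjusted p = 0.0252), and was within 0.30 of untreated with AG1296. That call was lost without any untreated array or without PDGF-AB replicate 1 or 2 (up to 0.119) and with only the arrays compared (0.204). Aldh1a2, which makes retinoic acid in the epicardium, passed in neither direction against untreated (0.61 with PDGF-AB, adjusted p = 0.140). It was 0.91 and 1.00 higher with PDGF-AB than with AG1296 at 1 uM and 10 uM (adjusted p of 0.00149 and 0.000997). Of the 20 genes, 1 was called higher and 4 lower with PDGF-AB than at 1 uM (2.28% and 2.93% of all genes). Against 10 uM 1 was called higher and 3 lower (1.42% and 2.0%). Sema3d, Gpm6a and Nkain4 were lower in both, by log2 differences of -1.70, -1.49 and -1.08 at 1 uM. At 10 uM these were -1.27, -0.79 and -0.70 (limma, adjusted p up to 0.00869). The Nkain4 call at 10 uM was lost with only the arrays compared (0.0584).

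**Figure D4:**
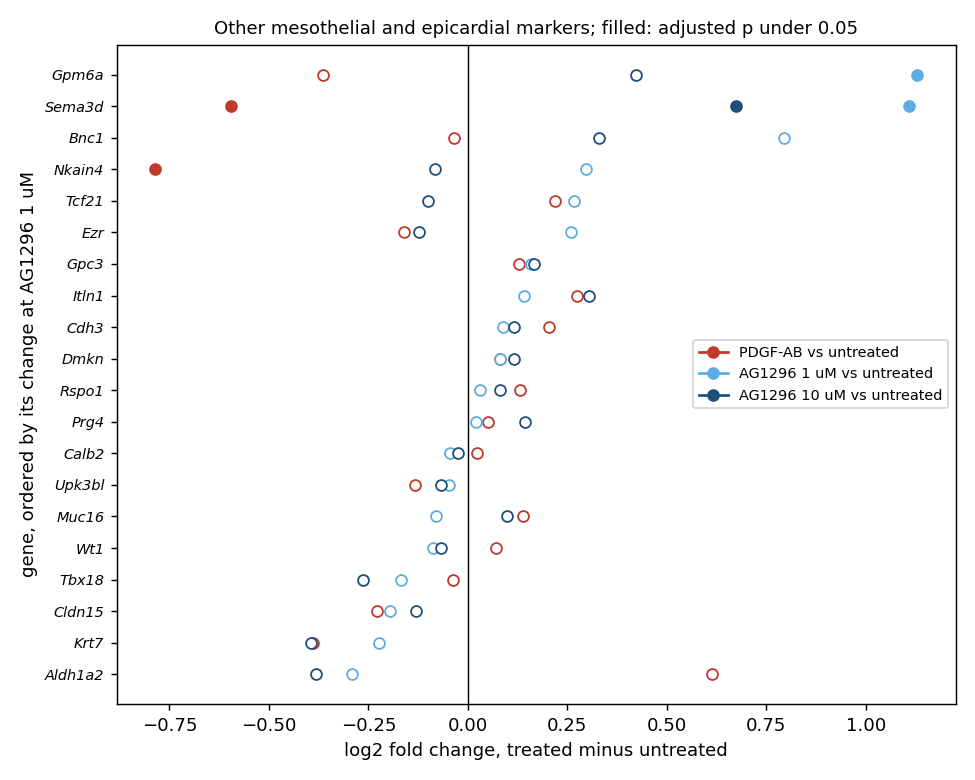
Log2 fold change against untreated for 20 other mesothelial and epicardial markers in the 3 treatments, ordered by the change at AG1296 1 uM; filled points passed. Sema3d and Gpm6a lie to the right at 1 uM, at 1.11 and 1.13, and Sema3d and Nkain4 to the left with PDGF-AB.

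Mesothelial markers stood at very different levels. In untreated cells 5 of the 8 members lay above the array median over genes, led by Upk1b and Upk3b, as did Nkain4, Sema3d, Aldh1a2 and Gpm6a of the other markers. The members' count was also 5 with PDGF-AB and at 1 uM, and 4 at 10 uM. The array median is the middle level of all genes, so such counts are read beside an even split. Wt1, the epicardial transcription factor, ranged from 4.06 to 4.49 on the 12 arrays, close to the array median, Calb2 from 2.25 to 2.79 and Muc16 from 1.58 to 2.04. None of these 3 passed in a comparison, and Calb2, Muc16 and Msln lay below the array medians. Of the 20 listed markers, 8 had a group mean above the array median in each of the 4 groups. Among them were Tbx18, from 6.98 to 7.73 over the 12 arrays, and Tcf21, from 7.95 to 8.64, transcription factors of epicardium that fibroblasts also make; Tcf21 stands in the fibroblast list as well. Of 12 fibroblast markers 10 were above the array median in every group, of 20 epithelial junction and identity genes 3 to 5, of 10 endothelial markers 0, of 9 measured leukocyte markers 1 and of 10 cardiomyocyte markers 2. In these bulk cultures, fewer cells of a type and less RNA per cell cannot be told apart.

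Most epithelial genes did not pass. At 1 uM 6 of the 20 listed genes were higher and the other 14 lower than untreated, with a median log2 fold change of -0.10 beside -0.012 over all genes; the medians were 0.03 with PDGF-AB and -0.06 at 10 uM. With PDGF-AB against 1 uM 16 of the 20 were higher, with a median of 0.10 beside 0.026. Of all 19938 genes, 9300 were higher at 1 uM than in untreated cells and 11172 with PDGF-AB than at 1 uM. Epcam, the epithelial adhesion molecule, had group means from 2.58 to 2.75, and Cdh1, E-cadherin, from 3.66 to 3.82, with no call. Of the 20 epithelial genes 0 were called with PDGF-AB or at 10 uM (limma), where 0.331% and 1.88% of all genes were. At 1 uM 1 fell, where 1.33% of all genes did. With PDGF-AB, at 10 uM and at 1 uM, 1, 4 and 4 had an unadjusted p under 0.05, as did 8.55%, 11.4% and 13.1% of all genes. The gene that fell was Pkp1, a desmosomal plaque protein, at -0.56 on the log2 scale (limma, adjusted p = 0.0122). Its call was lost without untreated replicate 1 or 3 or AG1296 1 uM replicate 1 or 2 (0.0509 to 0.0684). The list's mean level lay between 3.44 and 3.72 on all arrays.

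Among 12 genes of other intermediate filaments and their linkers, Plec, which encodes plectin, a linker that binds keratin and vimentin filaments, rose by 0.60 at 1 uM (limma, adjusted p = 0.00454) and by 0.77 at 10 uM (adjusted p = 0.00122). The list held 0 calls with PDGF-AB, 1 rise and 1 fall at 1 uM and 1 rise at 10 uM. The gene that fell was Pkp2, at -0.54 on the log2 scale, and its call was not followed through the alternatives. Of all genes 0.331% were called with PDGF-AB, 1.88% rose and 1.33% fell at 1 uM and 1.21% rose at 10 uM. Vim, the main filament of fibroblasts, stayed within 0.08 of its untreated mean of 12.85 in all treatments. Nes, nestin, was higher with PDGF-AB than at 1 uM by 0.73 (adjusted p = 0.00217). Jup, the desmosomal plakoglobin, was lower with PDGF-AB than at 1 uM by a log2 difference of -0.36 (adjusted p = 0.0282), a call lost without PDGF-AB replicate 2 or 3 or any AG1296 1 uM array (up to 0.113) and with only the arrays compared (0.0972).

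Markers of fibroblasts and of other cell types were read beside these results. In the fibroblast list of 12 genes 5 rose and 2 fell at 1 uM, where 1.88% of all genes rose and 1.33% fell. At 10 uM 3 rose and 1 fell (1.21% and 0.672% of all genes), and 0 changed with PDGF-AB (0.331% of all genes). The list's mean level per array was 8.11 to 8.16 in untreated cells and 8.19 to 8.35 with PDGF-AB. It was 8.47 to 8.53 at 1 uM and 8.25 to 8.30 at 10 uM. Dcn, a small proteoglycan, rose by 1.70 at 1 uM and Lum by 1.91, while Pdgfra, the gene of the sorted receptor, fell by 0.91 (limma, adjusted p of 8.21e-07, 2.10e-06 and 3.84e-05). The mean of Lum over the 12 arrays, 2.97, lay below the lowest array median of 4.02, so background limits its fold change. The endothelial list held 1 rise at 1 uM, Tek at 0.73 (limma, adjusted p = 0.000761), where 1.88% of all genes rose. The mean of Tek, 3.83, also lay below that array median, with the same limit. Of the 10 endothelial genes 4 were higher at 1 uM, with a median log2 fold change of -0.06. Of all 19938 genes 9300 were, with a median of -0.012. The leukocyte and cardiomyocyte lists held 0 calls against untreated. Lyz2, a macrophage lysozyme, was lower with PDGF-AB than at 10 uM by a log2 difference of -1.02 (limma, adjusted p = 0.00634). In that comparison 7 of the 9 measured leukocyte genes were higher, with a median of 0.07. Of all 19938 genes 10136 were, with a median of 0.0035. Tnnt2, a cardiac troponin, was higher there by 0.46 (limma, adjusted p = 0.00990), as were 6 of the 10 cardiomyocyte genes in all (median 0.06). The Tnnt2 call was lost without AG1296 10 uM replicate 1 (0.0609) and with only the arrays compared (0.0538). The mean level per array was 3.20 to 3.47 for the endothelial list, 3.31 to 3.49 for the leukocyte list and 3.70 to 3.94 for the cardiomyocyte list. Their part in the members' changes was not tested.

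The genes whose profile over the 12 arrays was most like each called member were read as a description, since all points share the 4 treatments and 17043 genes were ranked for each. For Upk1b they were Prex2, an exchange factor of Rac, Cd44, a hyaluronan receptor, and Taldo1, an enzyme of the pentose phosphate pathway, with Pearson r of 0.97, 0.96 and 0.96. For Upk3b they were the laminin chain gene Lama2, the collagen gene Col12a1 and Sema3d, at 0.98, 0.98 and 0.97, and 148 genes had an r above 0.9, against 28 for Upk1b. With group means removed, these r values were 0.84, 0.52 and 0.54 for Upk1b and 0.62, 0.74 and 0.44 for Upk3b. Lrrn4 was nearest to Metrnl, Npnt and Abhd12b (0.95, 0.94 and 0.92), of which Npnt encodes the matrix protein nephronectin. Krt19 was nearest to Hnrnph1, Syk and Tmtc4 (0.95, 0.92 and 0.92). Krt6a was nearest to Il1b, the cytokine interleukin 1 beta, Nr4a1, an immediate early nuclear receptor, and Rasl11a (0.93, 0.92 and 0.92). With group means removed, the values were 0.77, 0.82 and 0.81 for Lrrn4 and 0.88, 0.92 and 0.69 for Krt19. For Krt6a they were 0.78, 0.57 and 0.55. Abhd12b and Il1b had means of 2.19 and 2.75 over the 12 arrays, below the lowest array median of 4.02.

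Among themselves, the members formed no common profile. Upk1b and Lrrn4 had an r of 0.89 over the 12 arrays and -0.20 with group means removed. Upk1b and Krt19 were at 0.76 and Lrrn4 and Krt19 at 0.75, whereas Upk3b was negative with Upk1b, Lrrn4 and Krt19 (-0.65, -0.65 and -0.59) and with Krt6a (-0.71). With group means removed, Upk1b and Krt19 were at 0.43 and Lrrn4 and Krt19 at 0.17, and Upk3b was at 0.31 with Upk1b, -0.16 with Lrrn4, 0.68 with Krt19 and 0.17 with Krt6a, so that 3 of its 4 values turned sign. Msln was between -0.34 and 0.31 with each of the others. With group means removed, Msln ran from -0.62 with Krt8 to 0.60 with Lrrn4. Lrrn4 and Krt6a were at 0.11, and at -0.81 with group means removed, the largest such value in size of any pair. Msln and Krt6a lay below the lowest array median of 4.02, so background limits their correlations.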

How the data were processed

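Expression was measured on 12 arrays, 3 for each of 4 groups. Each deposited value is the log2 expression of 1 probe set on 1 array; per the submitters' processing notes the authors used RMA, which corrects background, normalizes between arrays and summarises probes, and limma, with versions and genome build not given in the sources used here. The log2 scale was read from the range, 0.64 to 14.3. No further normalization or filter on low values was applied.

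Of 28853 probe sets, 21789 had 1 gene symbol in the platform annotation, 1621 had several and 5443 had none; the last 2 kinds were not used. Where a gene had several probe sets (999 genes) the one with the highest mean was kept, which left 19938 genes; each member had 1. By gene ID 21698 probe sets matched RefSeq, which changed 0 symbols.

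One limma 3.58.1 model (R 4.3.3) held all arrays with a mean per group; tests were two-sided and adjusted by Benjamini-Hochberg over all genes within each of 6 comparisons and the F test. The fit had 8 residual and 5.35 prior degrees of freedom, and its precision is limited by the number of arrays. It was also run on simulated data with independent errors, which cannot show how effects shared between arrays would act. Array medians ran from 4.02 to 4.13; across genes, arrays of a group correlated at 0.992 to 0.996. PDGF-AB replicate 1 had the lowest mean correlation with other groups (0.990).

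The members and gene lists were chosen with earlier results of these data known. Named beside the members were up to 4 genes per list, with the smallest F test p among those called in a comparison, called keratins, and the 3 genes most correlated with each member that passed the F test, leaving out predicted genes. Wt1, Calb2, Muc16, Tbx18, Tcf21, Krt7, Krt6b, Upk3bl, Epcam, Cdh1, Pkp2 and Vim were named outside that rule, with their values known. The alternatives were an intensity trend with robust moderation, median centring, quantile normalization, a filter on dim genes, all probe sets or their mean, only the arrays compared, a replicate block, and each array left out in turn.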

Additional observations from a re-analysis of the deposited data

How the results depend on the processing

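The calls of Upk1b with AG1296 at both doses, of Upk3b and Upk1b in their called comparisons with PDGF-AB, of Upk3b at 1 uM and of Lrrn4 at 10 uM were kept under every alternative run. Over the 48 member results, 873 of 942 alternatives kept direction and side of the threshold, 46 lost a call, 5 gained one and 18 turned the sign, 0 of them for a result that was called. The number of members called with PDGF-AB against untreated, 1 in the fit reported, was 2 with an intensity trend and robust moderation, 0 with median centring, 0 with quantile normalization, 0 with only the arrays compared and 0 to 1 with each array left out. At 1 uM it was 4, and 2 to 4 with each array left out (2 without AG1296 1 uM replicate 2). For PDGF-AB against 1 uM it was 5, 3 with only the arrays compared and 3 to 5 with each array left out.

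Signs turned for uncalled results with each array left out, where the log2 differences of Msln ran from -0.022 to 0.16 with PDGF-AB, -0.14 to 0.044 at 1 uM, -0.035 to 0.19 at 10 uM and -0.11 to 0.10 for PDGF-AB against 10 uM. Those of Krt8 ran from -0.011 to 0.31 at 10 uM and -0.014 to 0.19 for PDGF-AB against 1 uM, and those of Krt18 from -0.0023 to 0.23 at 10 uM and -0.094 to 0.17 for PDGF-AB against 10 uM. Those of Krt6a ran from -0.069 to 0.16 at 1 uM, -0.037 to 0.19 at 10 uM and -0.033 to 0.10 between doses, with -0.022 between doses after quantile normalization. The cause was not tested.

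Over all genes, an intensity trend with robust moderation gave 160, 1010 and 686 calls with PDGF-AB, 1 uM and 10 uM against untreated in place of 66, 639 and 375, the dim filter 133, 989 and 660, and a fit of only the arrays compared 7 with PDGF-AB and 218 at 10 uM. With each array left out these counts ran from 21 to 62, 349 to 718 and 219 to 434. Between doses 75 calls became 209, 175 and 14 under the same 3 settings and 16 to 82 with each array left out. For PDGF-AB against 10 uM 682 became 1077, 1032 and 391, for PDGF-AB against 1 uM 1039 became 691 with only the arrays compared, and for the F test 997 became 1610 with the trend and 1518 with the filter. Msln, Krt18 and Krt6a did not pass the dim filter and have no value there. Deviations of same-numbered arrays correlated from -0.03 to 0.30 over 18 pairs (mean 0.11), and those of differently numbered arrays from -0.24 to 0.18 over 36 pairs (mean -0.06). Not every same-numbered pair was above 0.1, so the numbers were not taken to pair the arrays; whether they share a source was not tested. With the replicate number as a block, Krt19 in PDGF-AB against 1 uM had an adjusted p of 0.0504 and Krt18 there one of 0.0233, and no other member call changed. Median centring and quantile normalization moved array medians by at most 0.063.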
